A study of Mus musculus with 15 samples.

Results

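The BCL2 family decides at the mitochondrial outer membrane whether a stressed cell lives or dies. Bcl2, Bcl2l1 (BCL-xL) and Mcl1 encode guardians that hold the membrane intact. Bax and Bak1 encode the effectors that form pores in it and let cytochrome c escape. The BH3-only proteins, encoded by Bcl2l11 (BIM), Bbc3 (PUMA), Pmaip1 (NOXA), Bid and Bad, sense damage and either block the guardians or activate the effectors. Cardiomyocytes are rarely replaced, so that this balance bears on how much muscle a heart keeps. ATF4 drives transcription in the integrated stress response, and DDIT3, also called CHOP, is a factor it induces. Work in other cells has reported that DDIT3 lowers Bcl2 and raises Bcl2l11 and Bbc3.

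The 10 genes named above were taken by symbol from the table of read counts, and all 10 were among its 23337 genes. Of these, 9 had enough counts to be tested with the 11814 genes of the fit, and Pmaip1 did not. The libraries came from FACS-purified cardiomyocytes of 4-week-old Rosa-Cas9GFP mice, in which hearts were digested by Langendorff perfusion. All mice, controls included, carried the Rosa-Cas9GFP allele and had received an adeno-associated virus (AAV), a viral vehicle for genes, on postnatal day 1. The virus was AAV-GFP (the GFP group, the control), AAV-ATF4-2A-GFP (the ATF4 group) or AAV-DDIT3-2A-GFP (the DDIT3 group), with 5 libraries in each group. The labels name no promoter for the vectors. They do not tie libraries to animals either, and the p-values rest on library-to-library spread, which may be partly technical. By Xist and Y-linked transcripts, GFP replicates 4 and 5, ATF4 replicate 2 and DDIT3 replicate 2 were female and the other 11 libraries male, so that each group held more than 1 animal.

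Library totals lay between 6217744 and 8317249 counts. Atf4 stood at 399.9 ± 79.5 CPM (read counts scaled to a common library size) in the ATF4 group against 71.1 ± 12.2 in GFP, and Ddit3 at 844 ± 180 CPM in the DDIT3 group against 15.6 ± 1.28 (SD, n = 5). Vector and endogenous transcripts of these genes are counted together. In the ATF4 group, Ddit3 too exceeded GFP, at 29.5 ± 7.62 CPM (log2 fold change 0.91 ± 0.17, SE, edgeR adjusted p = 6.1e-04). The summed level of 8 cardiomyocyte markers was 102865 to 134473 CPM in GFP, 87748 to 96937 CPM in ATF4 and 108285 to 118147 CPM in DDIT3. The summed level of 14 endothelial markers was 509 to 1011 CPM in GFP, 1171 to 1689 CPM in ATF4 and 495 to 834 CPM in DDIT3. Leukocyte markers summed to between 11.3 and 27.9 CPM in every library. Erythroid markers (4 genes) summed to 0 to 2.61 CPM in GFP, 5.92 to 8.09 CPM in ATF4 and 0.139 to 0.651 CPM in DDIT3. On the second principal component (11.4% of the variance), ATF4 replicate 2 and DDIT3 replicate 2, the only female libraries of their groups, stood highest, at 40.6 and 35.2. The female libraries of the control group, GFP replicates 4 and 5, stood at -15.8 and -14.5. In such bulk libraries fewer cells of a type and less RNA per cell cannot be told apart.

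Promoter sequence was read for the members from RefSeq's mouse annotation (GRCm38.p6, the same build as mm10), from 250 bases before to 50 bases after each start, and 9 of 10 members had an entry, with 15 windows in all. The stretches before the start are shown for the 3 members that rose in the ATF4 group and for Bcl2l11. Bcl2l11 had the largest SD within groups of the 9 tested members. Of the 3 windows of Bbc3 and the 2 of Bcl2l11, only the window with a match to the site named next is printed. Capitals mark a match to the FoxO site TGTTTAC on either strand.
Bcl2, chr1:106714291-106714540, minus strand: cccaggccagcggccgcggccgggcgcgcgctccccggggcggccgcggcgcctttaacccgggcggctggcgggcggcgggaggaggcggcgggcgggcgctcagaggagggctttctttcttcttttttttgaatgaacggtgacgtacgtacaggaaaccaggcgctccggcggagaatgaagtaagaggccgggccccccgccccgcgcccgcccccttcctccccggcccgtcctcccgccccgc
Bax, chr7:45466899-45467148, minus strand: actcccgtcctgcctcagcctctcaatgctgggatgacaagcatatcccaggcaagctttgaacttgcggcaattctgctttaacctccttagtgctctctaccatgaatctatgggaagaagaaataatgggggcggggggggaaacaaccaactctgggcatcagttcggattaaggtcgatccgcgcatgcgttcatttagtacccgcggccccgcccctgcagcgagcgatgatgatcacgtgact
Bbc3, chr7:16310011-16310260, plus strand: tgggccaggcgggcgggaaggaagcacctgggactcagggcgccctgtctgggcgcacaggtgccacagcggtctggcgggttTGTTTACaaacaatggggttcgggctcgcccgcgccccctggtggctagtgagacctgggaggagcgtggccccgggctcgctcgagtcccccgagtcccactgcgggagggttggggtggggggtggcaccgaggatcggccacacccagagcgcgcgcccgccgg
Bcl2l11, chr2:128125788-128126037, plus strand: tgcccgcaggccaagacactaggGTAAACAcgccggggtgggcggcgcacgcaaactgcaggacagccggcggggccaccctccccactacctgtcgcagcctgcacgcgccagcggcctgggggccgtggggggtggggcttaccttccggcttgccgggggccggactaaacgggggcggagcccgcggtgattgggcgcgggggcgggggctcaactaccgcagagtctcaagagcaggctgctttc
On both strands of each whole window, 4 motifs were searched. The C/EBP-ATF composite core TGATGNAA, the kind of site that ATF4 and DDIT3 bind as partners of C/EBP proteins, was in 0 of the 15 windows and in 3.97% of 32851 RefSeq windows of the same length. The cyclic AMP response element TGACGTCA (1.79% of all windows) and the ER stress response element (0.119%) were also in 0 of the 15. The FoxO site was in 3.65% of all windows and in 1 window each of Bcl2l11, at positions -227 to -221 from the start on the minus strand, and Bbc3, at positions -167 to -161 on the plus strand. No 2 of these motifs overlapped in the members. A match is one of letters within these windows, not a measurement of binding.

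With ATF4 raised, 3 members were higher than in GFP, and they stood on opposite sides of the family. Bcl2, the guardian, rose 3.47-fold. Bbc3, the PUMA gene and a BH3-only killer, rose 3.77-fold. Bax, the pore former, rose 1.47-fold. That is 3 of 9 tested members higher and 0 lower, where 16.5% of the 11814 tested genes were higher, 15.6% lower and 32.2% called in either direction. The members' median log2 fold change was 0.43, against 0.024 over all tested genes. The 9 members include Bid (0.92), which reached the low-count filter only through the ATF4 libraries and so tends to lift that median. With DDIT3 raised, 0 of 9 members were called, where 0.863% of tested genes were. At an unadjusted p below 0.05 the count was 0 too, where 1147 of the 11814 tested genes had such a p. It was also 0 by DESeq2, by limma-voom and in the authors' deposited table. The members' median log2 fold change was 0.15 in that comparison, against 0.0035 over all tested genes. No member had DDIT3 and GFP libraries that did not overlap, as 2.86% of tested genes did. Both comparisons use the same 5 GFP libraries. In the direct comparison of ATF4 with DDIT3, Bcl2 and Bbc3 were higher in ATF4, 2 of 9 members, where 17.8% of tested genes were higher, 16.0% lower and 33.8% called.

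**Figure D1:**
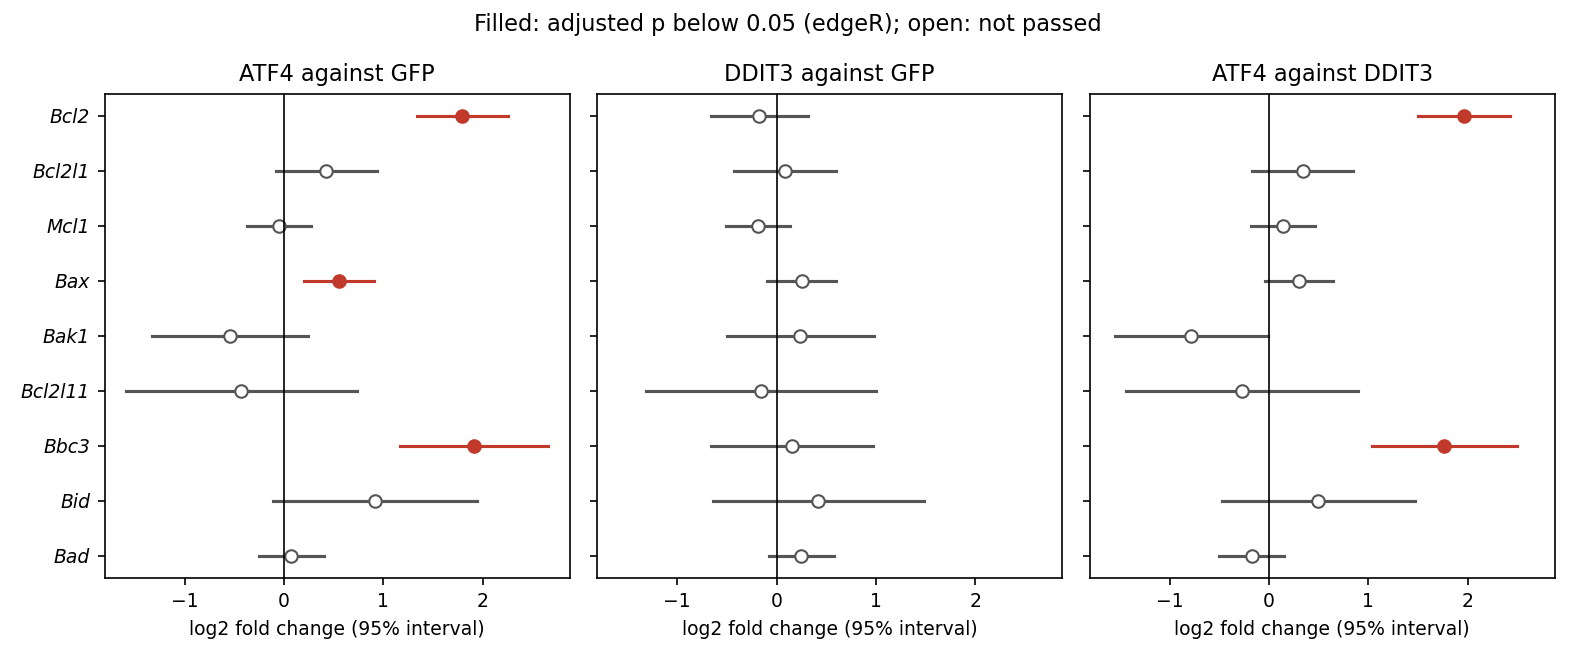
Log2 fold changes (x axis, with 95% intervals) of the 9 tested members in the 3 comparisons, from the edgeR fit of 15 libraries, with filled points for an adjusted p below 0.05. Bcl2, Bax and Bbc3 are filled in ATF4 against GFP, none in DDIT3 against GFP, and Bcl2 and Bbc3 in ATF4 against DDIT3.

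The levels of the members differed widely in the GFP controls. Per kilobase of the deposited gene length, Mcl1 stood highest, at 75.4 ± 11.4 CPM per kilobase, and its lowest library (67.5) was above every library of every other member. Bax (23.1 ± 5.62), Bcl2l1 (18.1 ± 3.17), Bad (12.4 ± 2.27) and Bcl2l11 (7.90 ± 4.54) followed, each overlapping the next in the range of its libraries. A gap separated them from Bak1 (1.21 ± 0.398), Bbc3 (0.814 ± 0.393), Bcl2 (0.685 ± 0.177) and Bid (0.429 ± 0.283), which overlapped one another. Pmaip1 was last, at 0.0337 ± 0.0523 CPM per kilobase (SD, n = 5 throughout). Of the length-scaled transcripts of the 3 guardian members, the control cells held Mcl1 as 79.8 ± 3.90%, Bcl2l1 as 19.5 ± 3.98% and Bcl2 as 0.728 ± 0.182%. Of those of the 5 BH3-only members, Bad made up 59.8 ± 12.2%, Bcl2l11 34.6 ± 11.9% and Bbc3 3.64 ± 1.24%. Relatives outside the 10 genes, such as Bcl2l2 and Bik, are not in these shares.

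**Figure D2:**
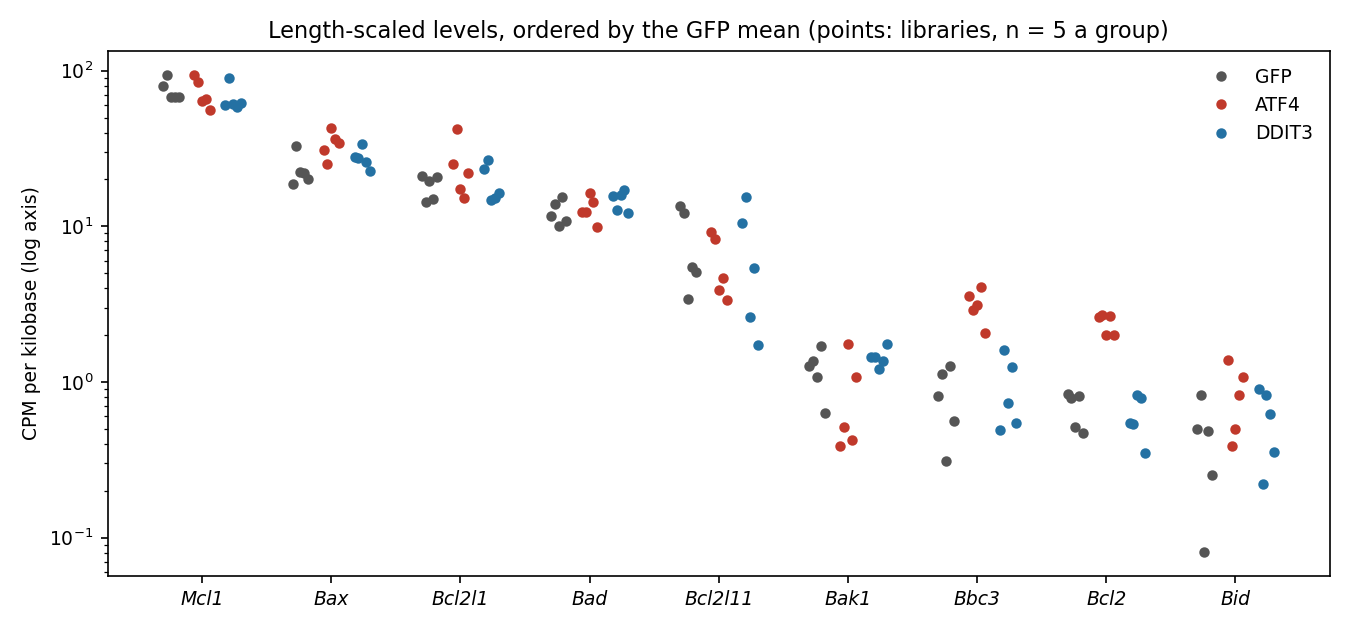
Levels in CPM per kilobase (log axis) of the 9 tested members, ordered by their mean in GFP, with 1 point per library and 5 libraries in each group. Mcl1 lies at 56.0 CPM per kilobase or more in all 15 libraries, and Bbc3 and Bcl2 lie at 1.61 or less in GFP and DDIT3 and between 2.00 and 4.09 in ATF4.

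Bcl2 encodes the founding guardian, which sits in the mitochondrial and ER membranes (gene body chr1:106538176-106714290, minus strand, with its upstream sequence printed above). In GFP replicates 1 to 5 it stood at 6.44, 6.13, 3.98, 6.32 and 3.63 CPM. The ATF4 libraries held 20.2, 21.0, 15.6, 20.6 and 15.5 CPM. The DDIT3 libraries held 4.24, 4.16, 6.39, 6.12 and 2.69 CPM. Every ATF4 library lay above every library of both other groups, as it did for 11.7% of tested genes against GFP and 12.3% against DDIT3. The log2 fold change of ATF4 against GFP was 1.80 ± 0.22 (SE, 95% interval 1.33 to 2.26, edgeR adjusted p = 6.0e-06), and against DDIT3 1.97 ± 0.22 (edgeR adjusted p = 2.0e-06). Against GFP, the DDIT3 group differed by -0.17 ± 0.23 (edgeR adjusted p = 0.899), and the interval of -0.66 to 0.32 holds both a fall and a rise.

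The rise of Bcl2 went together with a rise of endothelial markers, of which 12 of 14 were higher and 0 lower in ATF4 against GFP (median log2 fold change 0.85). Their summed level in ATF4 replicates 1 to 5 was 1689, 1573, 1171, 1381 and 1428 CPM. Pericyte and smooth muscle markers were higher for 5 of 9 and lower for 0. Of 11 fibroblast markers, 1 was higher and 1 lower (median log2 fold change 0.06). Of 6 leukocyte markers, 0 were called (median -0.01). Of 8 cardiomyocyte markers, 5 were lower. The part of other cell types in the rise of Bcl2, Bbc3 and Bax was not tested. With ATF4 replicate 2 and DDIT3 replicate 2 both left out, the log2 fold change of Bcl2 against GFP was 1.74 ± 0.23 (edgeR adjusted p = 2.6e-05).

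Bcl2l1 encodes BCL-xL, the guardian that also binds activated effectors. Its GFP libraries held 49.8, 34.1, 46.3, 35.7 and 49.2 CPM. The ATF4 libraries spread widely, at 59.4, 100.1, 41.3, 36.0 and 52.2 CPM, with replicate 2 far above the rest. The DDIT3 libraries held 55.3, 63.0, 35.1, 36.2 and 38.5 CPM. The 3 groups overlapped. The log2 difference from GFP was 0.43 ± 0.24 in ATF4 (95% interval -0.08 to 0.94, edgeR adjusted p = 0.19), and 0.14 ± 0.19 without ATF4 replicate 2. In DDIT3 it was 0.09 ± 0.24 (interval -0.43 to 0.60, edgeR adjusted p = 0.962).

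Mcl1 encodes a short-lived guardian on which heart muscle is known to depend. In GFP it stood at 278, 326, 237, 235 and 238 CPM. The ATF4 libraries held 329, 294, 224, 229.6 and 195 CPM, within 0.37 log2 units below and 0.28 above GFP by the 95% interval (-0.05 ± 0.15, edgeR adjusted p = 0.846). The DDIT3 libraries held 211, 312, 211, 205 and 215 CPM. Replicate 2 stood apart there, and the other 4 lay below all 5 GFP libraries. At each of the 5 replicate numbers the DDIT3 library lay below the GFP library. The log2 difference of DDIT3 from GFP was -0.19 ± 0.15 (95% interval -0.51 to 0.14, edgeR adjusted p = 0.786), -0.19 ± 0.09 with the replicate number as a block (interval -0.39 to 0.0099, edgeR adjusted p = 0.345), and -0.32 ± 0.14 without DDIT3 replicate 2 (edgeR adjusted p = 0.539).

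**Figure D3:**
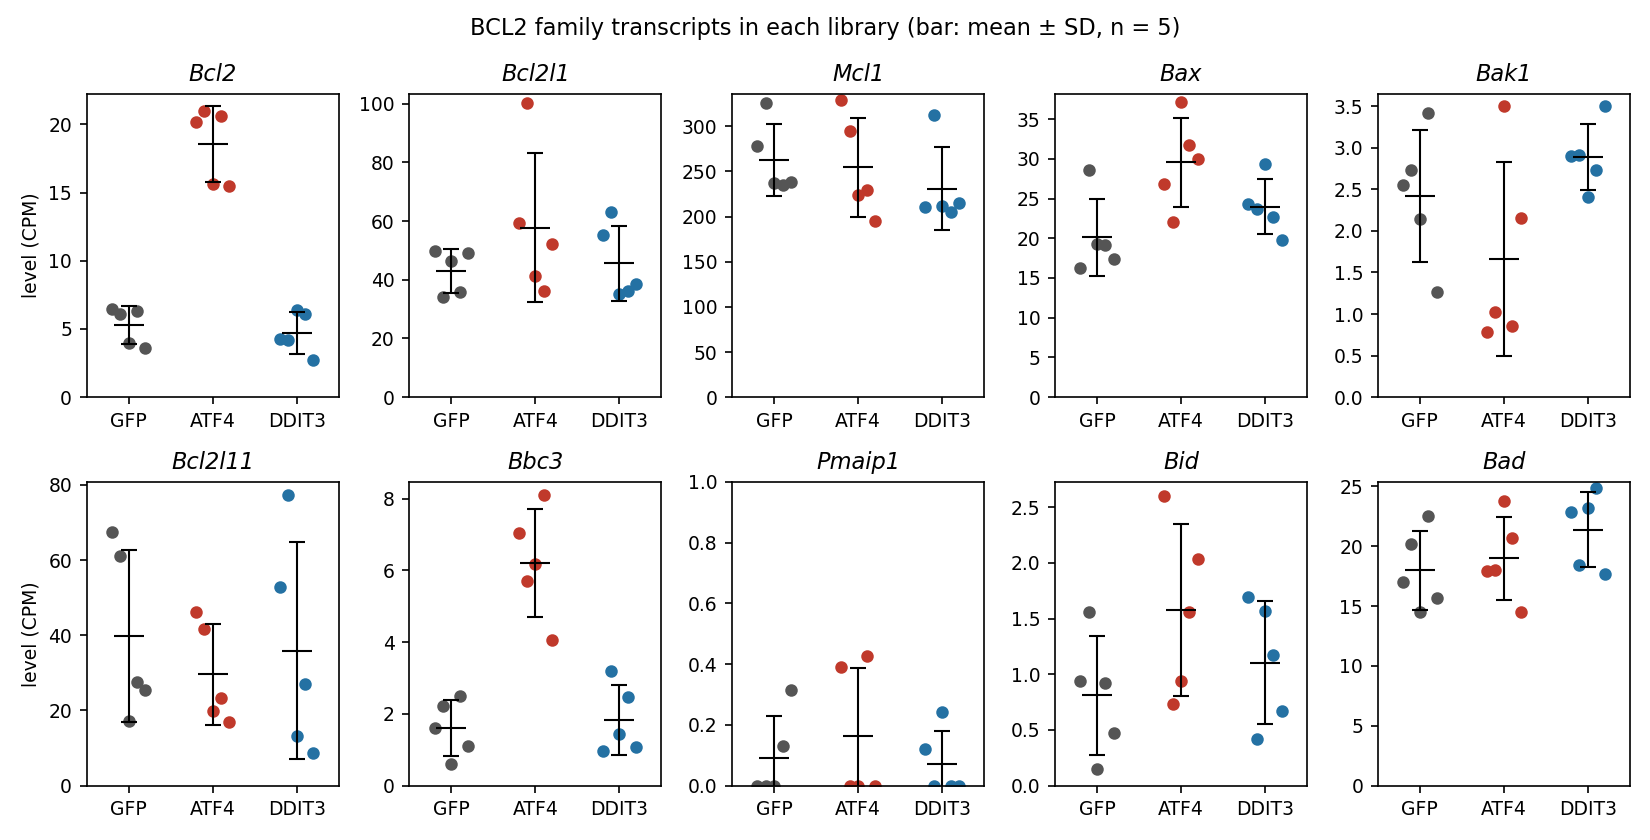
Level in CPM (y axes, linear from 0, each with its own scale) of the 10 members, with 1 point per library and bars for mean ± SD (n = 5 in each group). The ATF4 points of Bcl2 (15.5 to 21.0) and Bbc3 (4.06 to 8.09) lie above all GFP and DDIT3 points, and the groups overlap in the other 8 panels.

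Bax encodes the effector that moves from the cytosol to mitochondria (gene body chr7:45461695-45466903). The GFP libraries held 16.2, 28.5, 19.3, 19.1 and 17.4 CPM, with replicate 2 above the others. The ATF4 libraries held 26.8, 22.0, 37.1, 31.8 and 30.0 CPM. The DDIT3 libraries lay between, at 24.3, 23.7, 29.3, 22.6 and 19.8 CPM. ATF4 and GFP overlapped through GFP replicate 2, which exceeded 2 of the ATF4 libraries. The log2 fold change of ATF4 against GFP was 0.55 ± 0.17 (95% interval 0.20 to 0.90, edgeR adjusted p = 0.0164), and 0.71 ± 0.15 without GFP replicate 2 (edgeR adjusted p = 0.00205). Across 25 alternative settings its adjusted p reached at most 0.0485. Against DDIT3 the ATF4 group differed by 0.30 ± 0.16 (edgeR adjusted p = 0.171), so that a difference between the vectors was not shown. The DDIT3 group differed from GFP by 0.25 ± 0.17 (interval -0.10 to 0.60, edgeR adjusted p = 0.706).

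Bak1 encodes the effector that resides in the mitochondrial membrane, and its counts were low, from 6 to 26 in a library. GFP libraries held 2.55, 2.74, 2.14, 3.42 and 1.26 CPM. ATF4 libraries held 0.781, 1.03, 3.50, 0.852 and 2.16 CPM, so that 3 of 5 lay below every GFP library and replicate 3 above them all. DDIT3 libraries were close to each other, at 2.91, 2.91, 2.41, 2.73 and 3.50 CPM. The log2 difference was -0.54 ± 0.37 for ATF4 against GFP (edgeR adjusted p = 0.286) and -0.78 ± 0.37 for ATF4 against DDIT3 (edgeR adjusted p = 0.11). Without ATF4 replicate 3 both were called, at -0.999 (edgeR adjusted p = 0.0379) and -1.24 (edgeR adjusted p = 0.0104). For ATF4 against DDIT3, limma-voom called the fall with all libraries (-0.99, adjusted p = 0.0403). DDIT3 against GFP gave 0.24 ± 0.35 (interval -0.50 to 0.98, edgeR adjusted p = 0.916).

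Set against each other per length, Bax exceeded Bcl2 in all 15 libraries, and by less where ATF4 was raised. The ratio of Bax to Bcl2 was 35.3 ± 9.86 in GFP (22.4 to 43.1), 14.7 ± 4.64 in ATF4 (9.34 to 21.2) and 48.2 ± 12.2 in DDIT3 (33.0 to 65.4). The ATF4 ratios did not overlap with those of the other groups. Bcl2 made up 2.47 ± 0.434% of the length-scaled transcripts of the 3 guardian members in ATF4 and 0.739 ± 0.313% in DDIT3 (SD, n = 5). The ratio of Bbc3 to Bcl2 was 1.15 ± 0.375 in GFP, 1.31 ± 0.252 in ATF4 and 1.59 ± 0.862 in DDIT3, with overlapping libraries. These ratios describe transcripts and carry no test.

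Bbc3 encodes PUMA, a BH3-only protein that binds all the guardians and is a classical target of p53 and of FoxO factors (gene body chr7:16308398-16318334). Its GFP libraries held 1.61, 2.22, 0.613, 2.50 and 1.11 CPM. The ATF4 libraries held 7.03, 5.72, 6.19, 8.09 and 4.06 CPM. The DDIT3 libraries held 0.968, 3.19, 1.45, 2.47 and 1.08 CPM. The lowest ATF4 library was above the highest library of either other group. The log2 fold change was 1.92 ± 0.36 against GFP (95% interval 1.17 to 2.66, edgeR adjusted p = 4.7e-04) and 1.76 ± 0.35 against DDIT3 (edgeR adjusted p = 8.0e-04). DDIT3 against GFP gave 0.15 ± 0.39 (interval -0.66 to 0.97, edgeR adjusted p = 0.959). Bbc3 made up 13.6 ± 2.00% of the length-scaled transcripts of the 5 BH3-only members in ATF4 and 3.92 ± 1.45% in DDIT3. With both number 2 vector libraries left out, the log2 fold change of ATF4 against GFP was 1.94 ± 0.35 (edgeR adjusted p = 4.7e-04).

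Bcl2l11 encodes BIM, the BH3-only protein that binds every guardian and can activate Bax. GFP libraries held 67.6, 61.1, 17.2, 27.7 and 25.4 CPM. ATF4 libraries held 46.2, 41.8, 19.8, 23.4 and 17.0 CPM. DDIT3 libraries held 52.9, 77.3, 13.1, 27.1 and 8.76 CPM. In every group the libraries numbered 1 and 2 were the highest, all at 41.8 CPM or more, and the other 3 lay at 27.7 CPM or less. Pooled over the 3 groups, its within-group SD was 0.94 on the log2 scale, the largest of the 9 tested members and larger than that of 99.7% of tested genes. The titles give the replicate numbers, and no label says what a number marks.

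The group differences of Bcl2l11 were small beside that spread. ATF4 against GFP gave a log2 difference of -0.43 ± 0.54 (95% interval -1.59 to 0.73, edgeR adjusted p = 0.58), and DDIT3 against GFP -0.16 ± 0.54 (interval -1.31 to 0.997, edgeR adjusted p = 0.971). With the replicate number as a block, which compares libraries of the same number, DDIT3 against GFP gave -0.30 ± 0.22 (interval -0.78 to 0.18, edgeR adjusted p = 0.556). The block narrowed the interval and did not call the gene.

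**Figure D4:**
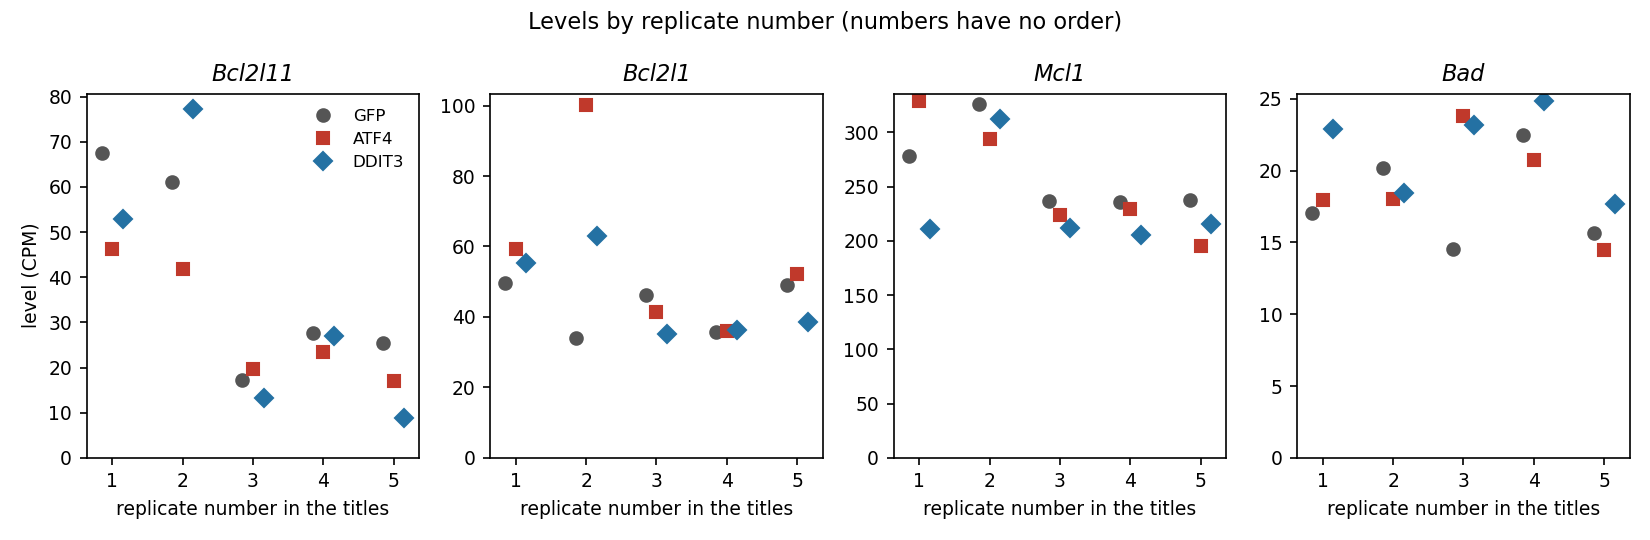
Level in CPM (y axes, linear from 0) of Bcl2l11, Bcl2l1, Mcl1 and Bad against the replicate number in the titles (x axis, a name without order), with 1 symbol per vector group. For Bcl2l11 the symbols at numbers 1 and 2 lie between 41.8 and 77.3 and those at numbers 3 to 5 between 8.76 and 27.7, in all 3 groups.

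Bid encodes a BH3-only protein that caspase 8 cuts to link death receptors to mitochondria, and it had 1 to 20 counts in a library. Outside the ATF4 group only 3 libraries reached the low-count filter, which asks for 5, so that Bid was tested through the ATF4 libraries. GFP libraries held 0.939, 1.56, 0.153, 0.922 and 0.474 CPM. ATF4 libraries held 2.60, 0.733, 0.941, 1.56 and 2.03 CPM. DDIT3 libraries held 1.69, 0.416, 1.57, 1.17 and 0.674 CPM. The groups overlapped. The log2 difference was 0.92 ± 0.49 for ATF4 against GFP (95% interval -0.11 to 1.95, edgeR adjusted p = 0.16) and 0.42 ± 0.51 for DDIT3 against GFP (interval -0.64 to 1.48, edgeR adjusted p = 0.876).

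Bad encodes a BH3-only protein that survival kinases silence by phosphorylation. GFP libraries held 17.0, 20.2, 14.6, 22.5 and 15.6 CPM. ATF4 libraries held 18.0, 18.0, 23.8, 20.7 and 14.5 CPM, and DDIT3 libraries held 22.9, 18.4, 23.2, 24.9 and 17.6 CPM. All 3 groups overlapped. Bad had the narrowest spread within groups of the tested members (SD 0.24 on the log2 scale). Its log2 difference was 0.08 ± 0.16 for ATF4 against GFP (95% interval -0.25 to 0.41, edgeR adjusted p = 0.75) and 0.25 ± 0.16 for DDIT3 against GFP (interval -0.08 to 0.58, edgeR adjusted p = 0.675). That second value had the lowest unadjusted p of the members with DDIT3 raised, 0.129 by edgeR.

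Pmaip1 encodes NOXA, a BH3-only protein that mainly binds MCL1 and is a reported ATF4 output in other cells. It was close to undetected, with 3 counts over the GFP libraries, 6 over the ATF4 libraries and 3 over the DDIT3 libraries. The filter of the edgeR fit left it out, and a modest change could not be seen at such counts. In the authors' deposited tables its log2 fold change was 0.87 ± 1.73 (SE) for ATF4 against GFP. For DDIT3 against GFP it was -0.24 ± 1.85, and neither had an adjusted p.

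Among the 15 libraries, the genes whose log2 CPM followed Bcl2 most closely by Pearson's r were Akna (0.977), Synm (0.975), Csgalnact1 (0.972), Ddx26b (0.969) and Litaf (0.968). Those closest to Bad were Vamp8 (0.872), Pih1d1 (0.869), 1110003E01Rik (0.863), Lamtor2 (0.859) and Pdcd2 (0.827). Such coefficients describe these libraries, which share the vector groups and sequencing depth.

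In the authors' deposited table of ATF4 against GFP, the log2 fold changes were 1.77 ± 0.21 for Bcl2 (adjusted p = 5.6e-16), 1.90 ± 0.34 for Bbc3 (adjusted p = 3.2e-07) and 0.53 ± 0.19 for Bax (adjusted p = 0.0225), by DESeq2. The authors' deposited table gave adjusted p of 0.215 or more for the other 6 tested members.

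The list of the wider family held 17 more genes, of which 10 were tested. Of these, 2 were called higher in ATF4 against GFP and 0 lower, where 16.5% of the 11814 tested genes were higher and 15.6% lower. These shares also stand beside the counts of the lists below. The median log2 fold change over the 10 was -0.03. The list also holds genes of binding partners rather than relatives, such as Bnip2 and Moap1. Hrk and Bmf, which are in the 10, passed the low-count filter only through the ATF4 libraries. With upper quartile factors or the replicate block the calls in this list were 2 higher and 2 lower, and with DESeq2 3 higher and 1 lower. Hrk, a BH3-only gene known from neurons, held 0.268, 0.391, 0.153, 0.132 and 0.474 CPM in GFP and 13.5, 12.5, 5.78, 5.11 and 4.83 CPM in ATF4. That is 10 counts over the GFP libraries and 306 over the ATF4 libraries, and DDIT3 had 12. Hrk passed the low-count filter through the ATF4 libraries alone, so that it had to differ, and these values are a description. Bok, a relative of Bax and Bak1, rose by 1.12 ± 0.36 (4.89 against 2.22 CPM, edgeR adjusted p = 0.0242), with overlapping groups. That call was lost without GFP replicate 3 (edgeR adjusted p = 0.0557), GFP replicate 5 (0.0573) or ATF4 replicate 1 (0.0779). The count of calls in the list rose to 4 (3 higher and 1 lower) without GFP replicate 1, GFP replicate 2 or DDIT3 replicate 5, and fell to 1 without ATF4 replicate 1.

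Downstream of the mitochondria, 3 of 14 tested genes of the caspases and apoptosome were lower in ATF4 and 0 higher, with a median log2 fold change of 0.04. Cycs, cytochrome c itself, fell by 0.68 on the log2 scale (28.3 against 45.3 CPM, SE 0.14, edgeR adjusted p = 9.6e-04). Aifm1, the apoptosis-inducing factor and also a respiratory chain assembly protein, fell by 0.52 (141 against 202 CPM, SE 0.09, edgeR adjusted p = 3.9e-04). Endog, a mitochondrial nuclease, fell by 0.48 (SE 0.17, edgeR adjusted p = 0.041). The Endog call was lost without any of GFP replicates 2, 3, 4 and 5 (edgeR adjusted p = 0.0696, 0.0724, 0.0751 and 0.0637) or without ATF4 replicate 1 (0.0821), and with only the groups compared in the fit (0.0634). Casp9, the initiator caspase of this route, differed by 0.19 ± 0.19 (edgeR adjusted p = 0.472). Of 5 tested genes of the inhibitor of apoptosis list, 0 were called by edgeR, DESeq2 or limma-voom. The list includes Xaf1, whose product is not itself such an inhibitor. By edgeR, 1 gene, Birc3, had an unadjusted p below 0.05. Without ATF4 replicate 2, 1 of these genes was called, lower, and with only the groups compared in the fit 1 was called, higher.

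**Figure D5:**
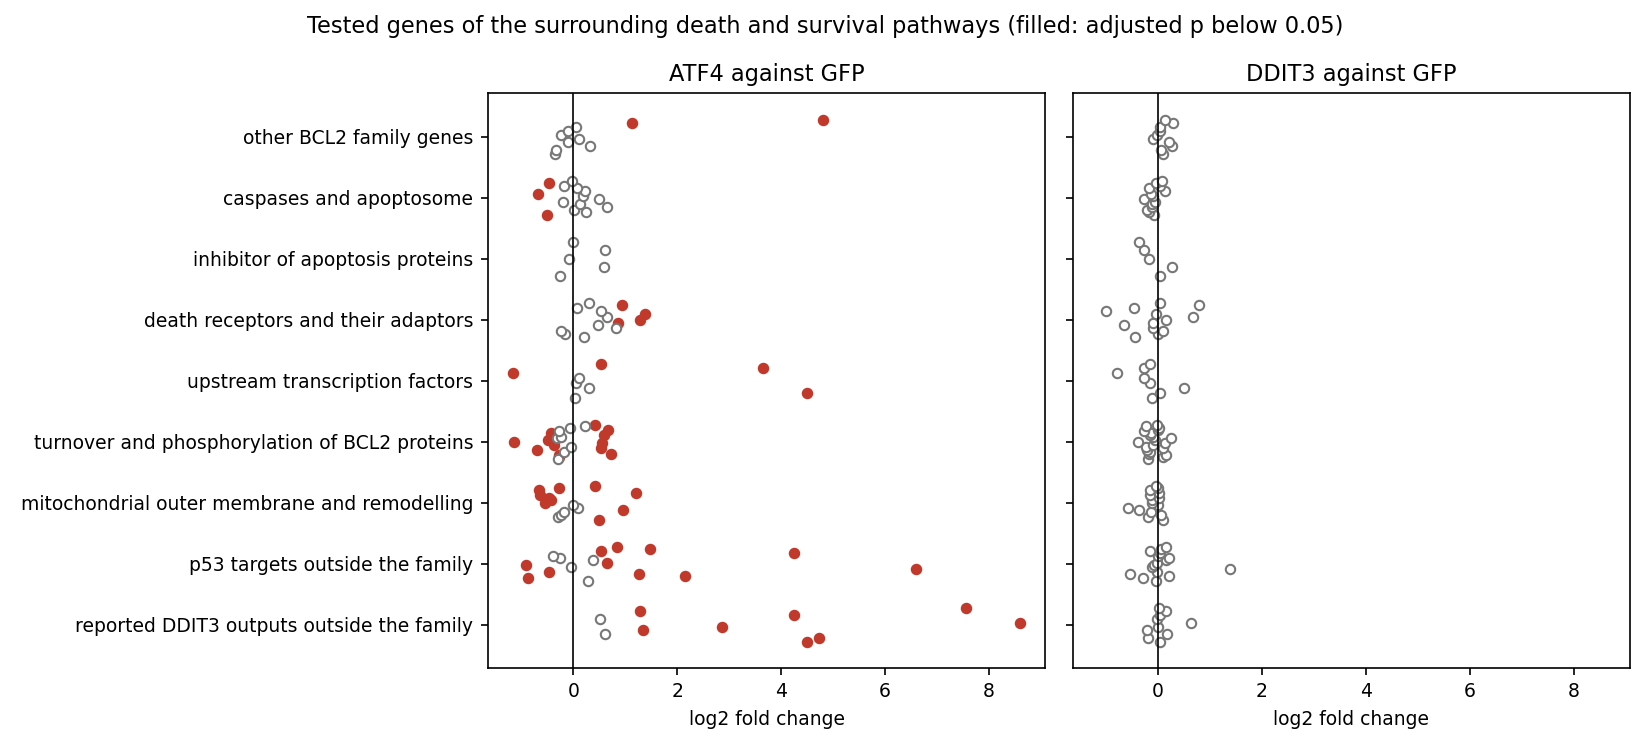
Log2 fold changes (x axis) of the tested genes of 9 surrounding gene lists in ATF4 against GFP and DDIT3 against GFP, with 1 point per gene, filled where the edgeR adjusted p was below 0.05 and scattered vertically only for legibility. Filled points reach 8.59 (Nupr1) in the ATF4 panel, and the DDIT3 panel has none.

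Death receptors and their adaptors, which reach the family through Bid, had 4 of 13 tested genes higher in ATF4 and 0 lower (median log2 fold change 0.52). Over all tested genes, 16.5% were higher and 15.6% lower. The 4 include Tnfrsf10b, which reached the low-count filter only through the ATF4 libraries, so that its value is a description. Tnfrsf1a, the main TNF receptor, rose by 1.38 ± 0.16 (55.9 against 21.4 CPM, edgeR adjusted p = 4.1e-06), and Tnfrsf10b, the TRAIL receptor DR5, by 1.28 ± 0.35 (2.78 against 1.12 CPM, edgeR adjusted p = 0.00942). Tradd, the adaptor of TNFR1, rose by 0.93 ± 0.28 (edgeR adjusted p = 0.0155) and Ripk3, the necroptosis kinase, by 0.85 ± 0.29 (edgeR adjusted p = 0.0313). The Ripk3 call was lost without GFP replicate 1, 3 or 5 (edgeR adjusted p = 0.071, 0.0771 and 0.0699) and without ATF4 replicate 1, 3 or 5 (0.074, 0.0616 and 0.0514), and with no filter beyond 1 count (0.0529). Endothelial cells also express several of these receptors, and the endothelial markers given above were higher in the same group. The part of such cells in the receptor values was not tested.

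Of 8 tested transcription factors known to act on family members, 3 were higher in ATF4 and 1 lower (median log2 fold change 0.20). Atf5, a stress factor, rose by 4.51 ± 0.23 (57.1 against 2.49 CPM, edgeR adjusted p = 3.5e-11) and Myc by 3.65 ± 0.38 (35.4 against 2.78 CPM, edgeR adjusted p = 1.0e-06). Trp53, the p53 gene, rose by 0.54 ± 0.18 (18.1 against 12.4 CPM, edgeR adjusted p = 0.0294). Jun, an immediate early factor, fell by 1.16 (SE 0.37, edgeR adjusted p = 0.0238). The Trp53 call was lost without GFP replicate 3 or 5 (edgeR adjusted p = 0.0666 and 0.0705) or ATF4 replicate 1, 4 or 5 (0.0525, 0.0592 and 0.0501). The Jun call was lost without GFP replicate 1 or 2 (edgeR adjusted p = 0.0603 and 0.0632) or ATF4 replicate 1, 4 or 5 (0.0537, 0.0539 and 0.0594), and with no filter beyond 1 count (0.0563). The count of calls in this list fell from 4 to 2 without ATF4 replicate 1, 4 or 5. Foxo1 and Foxo3, whose products act on Bcl2l11 and Bbc3 in other cells, differed by 0.04 ± 0.12 and 0.10 ± 0.36 (edgeR adjusted p = 0.818 and 0.86).

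Genes whose products modify or degrade the family's proteins went both ways, with 6 of 21 tested higher and 7 lower in ATF4 (median log2 fold change -0.24). Ywhab, a 14-3-3 protein of the kind that holds phosphorylated BAD in the cytosol, rose by 0.66 ± 0.09 (edgeR adjusted p = 3.7e-05), and Ppp3ca, the catalytic subunit of calcineurin, by 0.60 ± 0.10 (edgeR adjusted p = 1.6e-04). Fbxw7, part of a ubiquitin ligase for MCL1, fell by 0.70 (SE 0.11, edgeR adjusted p = 1.5e-04) and Mapk9, the kinase JNK2, by 0.50 (SE 0.10, edgeR adjusted p = 7.5e-04). At the mitochondrial outer membrane and its contacts with the ER, 4 of 15 tested genes were higher and 6 lower (median log2 fold change -0.24). Tmbim6, the BAX inhibitor 1 gene of the ER, rose by 1.20 ± 0.08 (365 against 159 CPM, edgeR adjusted p = 2.7e-09) and Bcap31, an ER partner of BCL2, by 0.50 ± 0.09 (edgeR adjusted p = 5.6e-04). The mitofusins Mfn1 and Mfn2, which fuse mitochondria, fell by 0.54 and 0.43 (SE 0.11 and 0.10, edgeR adjusted p = 0.00139 and 0.00267).

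Of 16 tested genes in the list of p53 targets outside the family, 8 were higher and 3 lower in ATF4 (median log2 fold change 0.46). The 8 include Trp53, the p53 gene itself, which is also counted among the transcription factors above and whose call was lost in several settings. Gdf15, a stress hormone, rose by 6.60 ± 0.27 and Sesn2, a restraint on growth signalling, by 4.25 ± 0.13, and Eda2r, a TNF receptor relative, by 1.27 ± 0.22 (edgeR adjusted p = 1.7e-12, 1.8e-14 and 2.5e-04). Perp, a membrane protein, fell by 0.90 (SE 0.11, edgeR adjusted p = 7.4e-06), and Mdm2 differed by -0.05 ± 0.13 (edgeR adjusted p = 0.783). Several of these genes are also known to answer to ATF4 directly. Of 10 tested genes outside the family reported as DDIT3 outputs in other cells, 8 were higher in ATF4 and 0 lower (median log2 fold change 3.55). Nupr1, a stress cofactor, rose by 8.59 ± 0.29 and Trib3, a pseudokinase, by 7.57 ± 0.23 (edgeR adjusted p = 1.1e-13 and 2.1e-14). Nupr1, Gdf15 and Tnfrsf10b reached the low-count filter through the ATF4 libraries, so that their values are a description. The counts and medians of their lists include them.

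In DDIT3 against GFP, 0 genes of any of these 9 lists were called by edgeR, DESeq2 or limma-voom with all libraries and no block. With the replicate number as a block, edgeR called 2 death receptor genes, 1 higher and 1 lower. Without it, 5 genes of the death receptor list had an unadjusted p below 0.05 by edgeR, of which Tnfrsf1b, Tnfrsf21, Cflar and Ripk1 were lower and Tradd higher. There were 1 such gene among the transcription factors and 2 among the p53 targets, where 1147 of the 11814 tested genes had such a p. Of the 10 tested genes reported as DDIT3 outputs, the median log2 fold change was 0.03, with 6 above 0. Trib3 differed by 0.02 ± 0.28 and Nupr1 by 0.63 ± 0.55 (edgeR adjusted p = 0.996 and 0.797). Gdf15 had the lowest unadjusted p of these lists (1.38 ± 0.37, edgeR adjusted p = 0.105). Endothelial markers were called for 0 of 14 by edgeR in that comparison, with 4 at an unadjusted p below 0.05 and a median log2 fold change of -0.24. Of 11 fibroblast markers 0 lay above 0 (median log2 fold change -0.50), and 1, the matrix gene Fbln1, was lower, at 43.2 against 79.8 CPM (edgeR adjusted p = 0.00275). Of 9 pericyte and smooth muscle markers and 6 leukocyte markers 0 were called and 0 lay above 0 (medians -0.15 and -0.28). The part of these cells in the DDIT3 values was not tested.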

How the data were processed

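PolyA RNA of FACS-purified cardiomyocytes was made into 15 libraries with SMART Seq v4 and Nextera XT reagents, per the labels' protocols. GFP replicate 5 is labelled SMART-Seq3 and the other 14 libraries SMART-Seq2. STAR, featureCounts, DESeq2 and DESeq and the build mm10 are listed in the submitters' processing notes, and no version was given in the sources used here. Per gene, the authors deposited a table of whole-number counts with a gene length column (another unit, in bases), which gave all results and the CPM per kilobase. Their 2 deposited tables of comparisons hold, per the file headers, p-values, a Wald score, log2 fold changes, their standard errors and a mean signal (normalised count), and were used only where named. The reagents keep no strand information, and reads of antisense partners that overlap a gene count with it.

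Groups and replicate numbers came from the titles. Counts were fitted with edgeR 4.0.16 (TMM factors, filterByExpr with a minimum count of 10, robust quasi-likelihood, R 4.3.3) in 1 fit of all 15 libraries on group alone (12 residual degrees of freedom), with Benjamini-Hochberg adjustment over 11814 genes and a threshold of 0.05. Standard errors are the log2 fold change divided by the root of F. CPM use TMM factors, and the depth was 6217744 to 8317249 counts per library. The common biological coefficient of variation was 19.6%. On simulated data of 11718 genes for ATF4 against GFP, the fit recovered 92% of changes of log2 size 1 and 100% of size 2. It made 8 false calls. The simulation gave every gene the common variation and changed only genes with a mean above 2 CPM. Its rates do not carry over to members with fewer counts or a wider spread, such as Bid or Bcl2l11. Libraries of 1 group differed by a chi-square per degree of freedom of 8.60 or more, so that none was a copy.

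Same-numbered libraries deviated together for DDIT3 and GFP (r = 0.246 to 0.569) and for ATF4 and DDIT3 (0.128 to 0.515). An r above 0.1 throughout was taken to pair these libraries by number. Even so, ATF4 replicate 1 matched DDIT3 replicate 2 best, and DDIT3 replicate 1 matched ATF4 replicate 2 best. No block is in the fit that gives the results, and the fit with the number as a block is an alternative, given beside a result where it changes a call. The labels leave the meaning of a number unstated. The alternatives were other size factors, filters, DESeq2 1.42.0, limma-voom (limma 3.58.1), the compared groups alone, the replicate number or sex (from Xist and Y-linked transcripts, 4 female libraries) as a term, and libraries left out. The members, gene lists and rules were chosen with earlier results of these data known. Beyond the members and the vector genes, the text names up to 4 called genes of each list with the lowest p in ATF4 against GFP, any called in DDIT3 against GFP, and the 5 genes most like the member of lowest p in each comparison with GFP. Other genes, including Casp9, Birc3, Foxo1, Foxo3, Mdm2, Tnfrsf1b, Tnfrsf21, Cflar, Ripk1, Bcl2l2, Bik and those of the closing section, were chosen for naming after their values were seen.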

Additional observations from a re-analysis of the deposited data

Results flagged for a closer look

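Of 27 sets of 5 values (9 tested members in 3 groups), 2 held a library whose gap to the nearest other exceeded 0.71 of the whole range, the 95% critical value for 5 values. Chance flags about 1 in 20 such sets. Mcl1 stood at 312 CPM in DDIT3 replicate 2, where the other 4 DDIT3 libraries lay between 205 and 215 CPM. Bax stood at 28.5 CPM in GFP replicate 2, where the other 4 GFP libraries lay between 16.2 and 19.3 CPM.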

How the results depend on the processing

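Each comparison was repeated under 25 alternatives, 15 of which left out 1 library. The count of members called in ATF4 against GFP was 3 to 4 with a library left out, in ATF4 against DDIT3 2 to 3, and in DDIT3 against GFP 0 in all. Bcl2, Bbc3 and Bax kept their calls in ATF4 against GFP in all 25, with log2 fold changes of 1.69 to 1.87, 1.72 to 2.12 and 0.46 to 0.71. Of 673 values of members under an alternative, 670 kept their side of the threshold, and the other 3 were the calls of Bak1 given above. Bid fell under the filter when only the GFP group and 1 vector group were fitted, which gave it no value there. The replicate block changed no member's call: for ATF4 against GFP, where the correlation at number 2 was 0.0857 and 4 of 5 libraries matched their own number best, it gave 1.82 ± 0.18 for Bcl2, 1.98 ± 0.28 for Bbc3, 0.56 ± 0.16 for Bax and -0.35 ± 0.22 for Bcl2l11. The block raised the count of all genes called in DDIT3 against GFP from 102 to 322, the calls among death receptor genes from 0 to 2 in that comparison and from 4 to 7 in ATF4 against GFP. DESeq2 called 224 genes in DDIT3 against GFP, and leaving out 1 library gave 55 to 146, with 65 or fewer without GFP replicate 1, 3 or 4 or DDIT3 replicate 1, 2 or 3. For the other BCL2 family genes in ATF4 against GFP, upper quartile factors, the block and DESeq2 each called 4. Leaving out ATF4 replicate 2 and DDIT3 replicate 2 together called 2 genes of the inhibitor of apoptosis list in ATF4 against GFP. The cause of these shifts was not tested. At 1 to 26 counts in a library, the depth limits Bid and Bak1, and Pmaip1 did not enter the edgeR test.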

Other observations

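Another family member was close to silent except in the ATF4 group. Bcl2l15, whose low counts kept it out of the test, had 4 counts over the GFP libraries and 2 over the DDIT3 libraries. ATF4 replicates 1 to 5 held 19, 14, 9, 14 and 14 counts, or 1.90 ± 0.461 CPM (SD, n = 5), and no library of another group had more than 1. Bcl2a1a, Bcl2a1d, Bcl2l10 and Bcl2l14 had 0 counts in all 15 libraries. The most abundant genes of the wider list per length in GFP were Bnip3 (62.9 ± 15.6 CPM per kilobase) and Bnip2 (58.9 ± 6.09). Both lay near the level of Mcl1. Neither was called in ATF4 against GFP (log2 differences -0.11 ± 0.18 and -0.25 ± 0.10, edgeR adjusted p = 0.687 and 0.066).

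By a rule added after its values were seen, genes were ranked by how closely their deviations from group means followed Bcl2l11 over the 15 libraries. The closest were Pnrc1 (Pearson's r 0.973), Fam100a (0.957) and 9430023L20Rik (0.934). Next came Fbxo32, the muscle ubiquitin ligase atrogin-1 (0.929), Pcmtd2 (0.916) and Pkp2, a desmosomal protein (0.915). 2410131K14Rik (-0.929), Gm14492 (-0.927), Tbl3 (-0.925) and Slc25a29 (-0.914) deviated most in the opposite direction. These values describe libraries that share replicate numbers and depth, and carry no test.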
